A study of Mus musculus with 4 samples.

Results

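Cytosolic ribosomal protein genes encode the proteins that, with ribosomal RNA, build the large (Rpl, Rplp) and small (Rps, Rpsa) subunits of the ribosome in the cytoplasm. They were taken by symbol: Rpl or Rps followed by a digit, and Rpsa, Rplp0, Rplp1 and Rplp2, with the symbols holding -ps (5 genes) and the Rps6k kinases (10 genes) left out. This gave 86 of the 32285 genes measured, 52 of the large and 34 of the small subunit, all annotated as protein-coding and spread over 19 chromosomes. The rule also took in Rps19bp1, which encodes a binding partner of Rps19 and no ribosomal protein, and it is kept in the counts.

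The samples were cells sorted for CD45, which leukocytes and microglia carry on their surface, taken from C57B6/J mice after a cortical brain injury. Thalamus and hippocampus (HPC) were kept apart, and RNA was read in droplets (scRNA-seq) with a unique molecular identifier (UMI) on each molecule. By the study's methods the cortex was removed on 1 side, tissue came from that hemisphere, and several mice were pooled per region. The 8 deposited matrices, 4 for each region, are the sets of cells that shared an oligo tag. Each was taken as 1 mouse, which the labels do not state, so p-values measure the spread between these tagged sets. All mice were injured and no uninjured tissue was compared. Since thalamus and HPC cells went through separate 10x libraries, region and library cannot be told apart.

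Ribosomal protein genes are known as a group that is expressed together. Their messenger RNAs carry a 5′ terminal oligopyrimidine (TOP) start, a stretch of C and T bases at the first transcribed base, through which mTOR and the RNA-binding protein Larp1 set how strongly they are translated. They are among the most abundant messages of lymphocytes, and their share of the RNA in a cell is known to differ widely between immune cell types. Translation itself was not measured here.

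The sequence around the annotated start is shown for members that the comparisons below turn on, together with Rpl7a, which had the longest C and T run found. Each line gives 20 bases before and 20 bases from the RefSeq start (GRCm38.p6), 5′ to 3′ on the strand of the gene, and the capitals mark the longest unbroken run of C and T.
Rpl7a, chr2:26910787-26910826, plus strand: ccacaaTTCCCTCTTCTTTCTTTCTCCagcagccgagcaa
Rpl34, chr3:130730318-130730357, minus strand: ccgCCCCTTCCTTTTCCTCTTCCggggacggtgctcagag
Rps26, chr10:128626487-128626526, minus strand: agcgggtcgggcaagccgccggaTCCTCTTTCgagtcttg
Rps15a, chr7:118116128-118116167, minus strand: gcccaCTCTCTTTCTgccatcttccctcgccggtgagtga
Rpl5, chr5:107900508-107900547, plus strand: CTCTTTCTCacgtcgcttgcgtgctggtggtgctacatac
Rplp0, chr5:115559447-115559486, plus strand: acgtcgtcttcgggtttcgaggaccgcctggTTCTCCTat
Rpsa, chr9:120127746-120127785, plus strand: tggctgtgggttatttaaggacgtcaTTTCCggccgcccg
Rps2, chr17:24720043-24720082, plus strand: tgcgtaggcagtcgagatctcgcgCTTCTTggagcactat
Rpl41, chr10:128549149-128549188, minus strand: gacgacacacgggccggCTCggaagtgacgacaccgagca

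RefSeq starts were matched for 66 of the 86 members. Some have more than 1 annotated start, 78 in all, and for Rpl34 the start with the longer run is shown. A run of at least 10 C or T bases lay within 20 bases of a start in 34.8% of these 66, against 8.61% of 27025 genes. The letters CTTTC on the strand of the gene were present in the same window in 20 members (30.3%) against 6.44% of all genes, and CCGGAAG, on either strand from 250 bases before to 50 after a start, in 39.4% against 9.93%. The annotated start need not be the start used in these cells, and Rps26, Rps15a and Rpl5 hold CTTTC in the lines above while Rplp0, Rpsa, Rps2 and Rpl41 do not. Members with and without CTTTC had close median log2 fold changes in microglia, at 2.42 (20 members) and 2.48 (44 members) between Malat1-poor and Malat1-rich microglia, and 0.53 and 0.54 between disease-associated and homeostatic microglia. In neutrophils against microglia the medians were -0.95 and -0.71 (20 and 45 members).

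After filtering, 24939 cells with 119958441 UMIs on genes were kept, and 10086212 of these UMIs (8.41%) fell on ribosomal protein genes. Sets held 2072 to 5389 cells with a median of 4261.5 to 4657 UMIs per cell, and 65 cell barcodes occurred in both regions, none in more than 1 set of a region. Cells were gated by marker genes into 19706 microglia, 2903 T cells and smaller classes, with 980 cells (3.93%) left ungated. Microglia-gated cells held 169 UMIs of the 10 microglial markers per 10000 and 0.824 of the T cell markers. HPC set 1 stood apart from the other HPC sets in its ribosomal protein levels, and the comparisons it decides are given with and without it.

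The share of UMIs on ribosomal protein genes differed most between cell classes. It was 6.71% ± 0.356 (SD, n = 4 sets) in thalamic and 6.44% ± 1.02 in HPC microglia, 17.7% ± 1.06 and 19.1% ± 0.743 in T cells, and 4.27% ± 0.529 and 4.34% ± 0.607 (n = 3 and 3) in neutrophils. Cells gated as monocytes and macrophages were at 14.9% ± 1.09 (n = 3) in the thalamus and 16.5% (1 set) in the HPC, and dendritic cells at 20.8% ± 1.96 (n = 2) and 21.96% (1 set). In the HPC, B cells were at 19.98% and natural killer cells at 21.0% in 1 set each. Lymphocytes and dendritic cells thus lay highest, in an order that these few sets do not settle, followed by monocytes and macrophages, microglia and neutrophils. The large subunit took 1.24 to 1.29 times the UMIs of the small subunit in microglia and T cells of both regions and 1.09 to 1.11 times in neutrophils. No p-value is given for the share, because it is a score over the members.

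**Figure D1:**
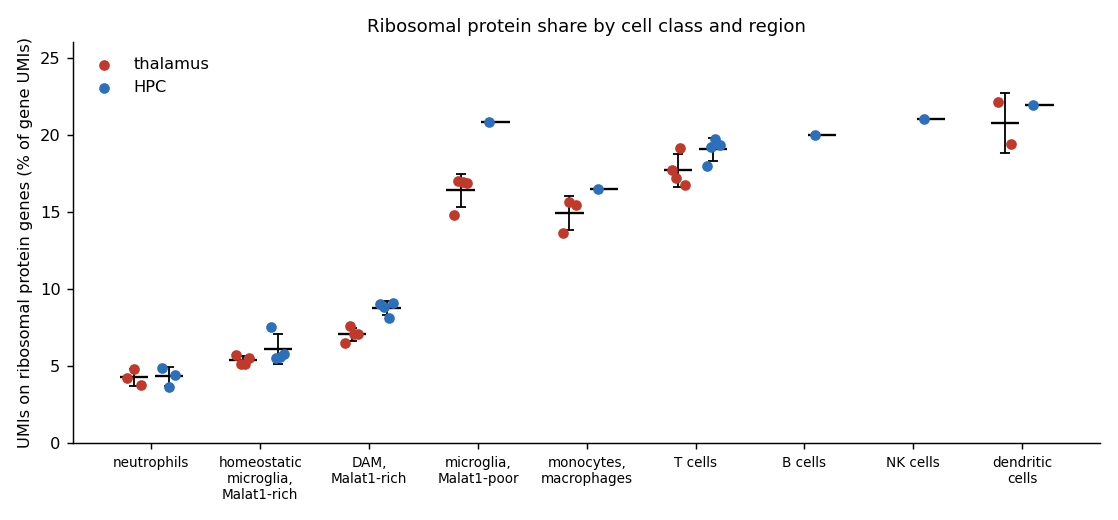
Share of UMIs on ribosomal protein genes (percent, y axis) in each gated cell class, with 1 point for each tagged set that held at least 20 cells of the class, a line at the mean and bars of 1 SD, thalamus and HPC apart and microglia split into the homeostatic, DAM and Malat1-poor cells described below. T cells lie between 16.7% and 19.7%, and neutrophils between 3.69% and 4.89%.

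To ask whether the genes differed between regions within microglia, counts were summed over the microglia of each set. Thalamus sets 1 to 4 had shares of 7.12%, 6.68%, 6.26% and 6.78%. HPC sets 1 to 4 had shares of 7.94%, 5.87%, 5.77% and 6.17%, and HPC set 1 made the regions overlap. Of 84 members tested, 4 passed edgeR's threshold as higher in thalamic cells, against 9.06% of all genes tested, and 0 as lower, against 5.13% (14.2% in either direction). At an unadjusted p under 0.05 there were 23 members. Sums did not overlap for 4 members that were higher (8.73% of all genes) and 2 that were lower (13% of all genes). The median log2 fold change of the members was 0.08, against -0.01 for all genes. In sums of cells, fewer cells of a type and less RNA per cell cannot be told apart. Disease-associated microglia, described below, held a higher share and were a larger part of the thalamic microglia, so these sums mix state with region.

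The 4 members were Rpsa, Rplp0, Rpl8 and Rpl5. Rpsa, a protein of the small subunit that also serves as the laminin receptor, had 1131, 997, 930 and 1003 CPM (UMIs scaled to the total of each sum) in the thalamus sets and 878, 622, 624 and 647 CPM in the HPC sets, with 0.61 ± 0.14 (SE) as log2 fold change (edgeR adjusted p = 0.0198). Rplp0, the base of the stalk that recruits translation factors, had 1119, 982, 935 and 1001 CPM in thalamus sets against 867, 687, 696 and 713 CPM in HPC sets (edgeR log2 fold change 0.51 ± 0.11 SE, adjusted p = 0.0169). In both genes every thalamus set was above every HPC set, and HPC set 1 was the highest of its region.
Rpl8, a core protein of the large subunit, averaged 856 ± 36.7 CPM over thalamus sets and 671 ± 81.4 over HPC sets (n = 4 and 4, edgeR log2 fold change 0.41 ± 0.10 SE, adjusted p = 0.0291). Rpl5, which binds 5S ribosomal RNA, had 713 ± 13.7 and 585 ± 45.7 CPM (edgeR log2 fold change 0.35 ± 0.08 SE, adjusted p = 0.0213). The other stalk proteins were not called, Rplp1 with a log2 fold change of -0.19 (edgeR adjusted p = 0.286) and Rplp2 with -0.14 (edgeR adjusted p = 0.464). The study names Rps16, Rps23 and Rpl19 as examples of genes reduced in a microglial state that was not gated here. Between the regions these members had log2 fold changes of 0.13, -0.12 and 0.36 with edgeR adjusted p-values of 0.53, 0.492 and 0.111. Without HPC set 1, Rps16 (0.29, edgeR adjusted p = 0.0184) and Rpl19 (0.52, edgeR adjusted p = 0.0023) were called, and Rps23 was not (edgeR adjusted p = 0.983).

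These calls rested on few sets. Without HPC set 1, 40 members were higher (14.4% of all genes) and 0 lower (10.2% of all genes), with a median log2 fold change of 0.25. Without HPC set 2 or HPC set 4, 0 members were called (6% and 7.31% of all genes). Without HPC set 3, thalamus set 1 or thalamus set 4, 1 was called (9.82%, 8.23% and 7.78%). The call was lost in 5 of 8 such fits for Rpsa and Rpl5, in 6 for Rpl8 and in 2 for Rplp0, with log2 fold changes of 0.54 to 0.78 for Rpsa and 0.44 to 0.62 for Rplp0 over the 8 fits. Malat1-poor cells, described below, were 857 of 8736 thalamic (9.81%) and 121 of 10970 HPC microglia (1.1%). By set they were 5.997% to 17.1% in the thalamus and 0.252% to 2.47% in the HPC, where set 1 was the highest and the share without it was 0.423%. With these cells left out, 2 members were higher, against 6.55% of all genes, and 0 lower, against 3.51% (10.1% in either direction), and the median log2 fold change of the members was -0.06. Rplp0 had a log2 fold change of 0.37 ± 0.10 SE by edgeR (adjusted p = 0.0386), and Rpsa one of 0.46 (edgeR adjusted p = 0.044) with overlap between the sets. Sums did not overlap for 2 members that were higher (8.12% of all genes) and 16 that were lower (9.41% of all genes). The share in these cells was 6.21% ± 0.237 and 6.38% ± 0.956 (n = 4 and 4), a difference of -0.173 percentage points that was 0.297 without HPC set 1, where 28 members were higher (11.8% of all genes) and 1 lower (7.87% of all genes).

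In T cells, the share was 17.7%, 17.2%, 19.2% and 16.7% in the thalamus sets and 18.0%, 19.2%, 19.7% and 19.4% in the HPC sets. The regions overlapped, and the HPC mean was 1.37 percentage points above that of the thalamus. Of 83 members tested, 1 was lower in the thalamus (0.0218% of all genes tested) and 0 were higher (0.12%), while 44 had an unadjusted p under 0.05. Sums did not overlap for 32 members that were lower (2.06% of all genes) and 2 that were higher (2.79%). The called member was Rpl34, a protein of the large subunit, with 1696, 1725, 1689 and 1653 CPM in thalamus sets against 2070, 2142, 2228 and 2270 CPM in HPC sets (edgeR log2 fold change -0.38 ± 0.06 SE, adjusted p = 0.0308). Its log2 fold change was -0.41 to -0.34 when any 1 of the 8 sets was left out, and the call was lost in 8 of 8 such fits (edgeR adjusted p of 0.0568 to 0.163). The median log2 fold change of the members was -0.17, against 0.00 for all genes.

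Within the family, the difference between regions moved with the length of the transcript. This pattern and the limit of 600 bases used to describe it were chosen after the fold changes had been seen. Lengths of the principal transcripts in the GENCODE annotation were 345 to 5130 bases, with a median of 803.5, and 23 members were under 600 bases. Across members, Spearman's rho between length and the log2 fold change, thalamus against HPC, was 0.52 in microglia (82 members), 0.54 in Malat1-rich microglia (82) and 0.56 in T cells (83). Pearson's r was 0.202, 0.219 and 0.205, so the relation was one of ranks. Members share libraries and are not independent replicates. In the comparisons between kinds of cell within a set, rho was -0.29 to 0.09. Members under 600 bases had a median log2 fold change of -0.03 in microglia and -0.27 in T cells, against 0.15 and -0.08 for members of 600 to 1500 bases. Other genes moved the same way in T cells, with medians of -0.22 (111 genes under 600 bases) and 0.05 (1363 genes of 600 to 1500 bases). In microglia their medians were 0.04 (166 genes) and 0.14 (1743 genes), and in Malat1-rich microglia -0.05 (165 genes) and 0.09 (1734 genes). Between these 2 ranges of length the pattern was thus not confined to the family. Genes of more than 1500 bases were not summarized. The median of all genes tested, of any length, was -0.01 in microglia, under both medians of the other genes there, and 0.00 in T cells. A rise with length over all genes is therefore not shown. The called members Rpsa, Rplp0, Rpl8 and Rpl5, all higher in the thalamus, had 1768.5, 1358, 935.5 and 2045 bases, and Rpl34, which was lower, had 552.

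The same is seen in each set. The UMIs on members under 600 bases, divided by those on longer members, gave 0.289, 0.286, 0.288 and 0.290 in the microglia of the thalamus sets and 0.347, 0.340, 0.337 and 0.343 in those of the HPC sets. In T cells the ratio was 0.254, 0.256, 0.257 and 0.258 in thalamus sets against 0.290, 0.296, 0.299 and 0.291 in HPC sets. Within a region the ratio thus varied by little, the regions did not overlap in either class, and HPC set 1, which stood apart in the share, lay with the other HPC sets. Region cannot be told apart from library here. The part of transcript length in the regional differences given above was not tested gene by gene.

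**Figure D2:**
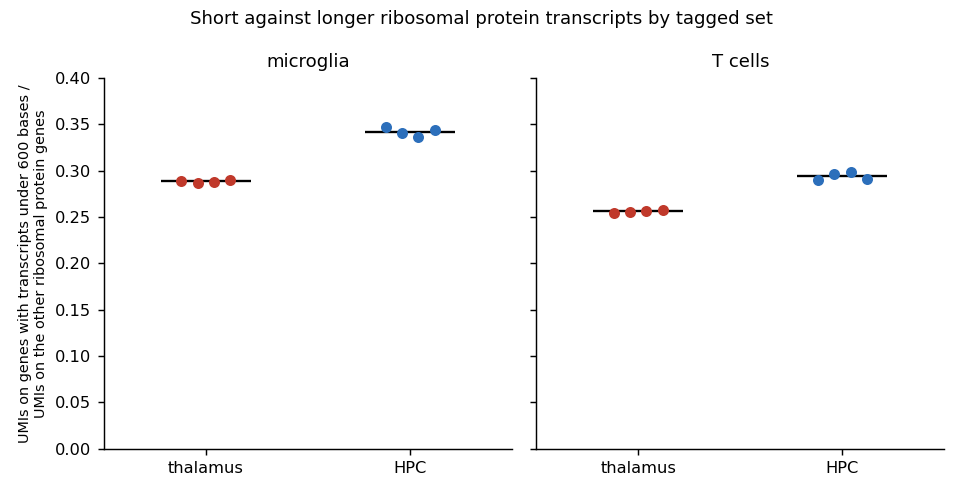
UMIs on ribosomal protein genes with transcripts under 600 bases divided by UMIs on the longer ones (ratio, y axis from 0) in microglia and T cells, with 1 point for each tagged set and a line at the mean of a region. In microglia the thalamus sets lie at 0.286 to 0.290 and the HPC sets at 0.337 to 0.347, and in T cells at 0.254 to 0.258 and 0.290 to 0.299.

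Malat1 is a long non-coding RNA that stays in the nucleus. Microglia with under 40 Malat1 UMIs per 10000, here called Malat1-poor, numbered 857 in the thalamus and 121 in the HPC. Their ribosomal protein share was 14.8%, 17.0%, 16.9% and 16.9% in the thalamus sets and 20.8% in HPC set 1, the HPC set with enough cells. The Malat1-rich microglia of the same sets were at 6.31%, 6.32%, 5.85%, 6.34% and 7.79%. In every one of these 5 sets the Malat1-poor cells were higher, by 10.8 percentage points ± 1.61 (SD, n = 5), a ratio of 2.65. The median share over thalamic cells was 14.8% to 16.01% in the 4 Malat1 ranges under 40 and 7.85% at 40 to 80, from where it fell to 1.92% at 500 or more. In the HPC it was 19.6% to 25.02% under 40 and 10.7% at 40 to 80.

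**Figure D3:**
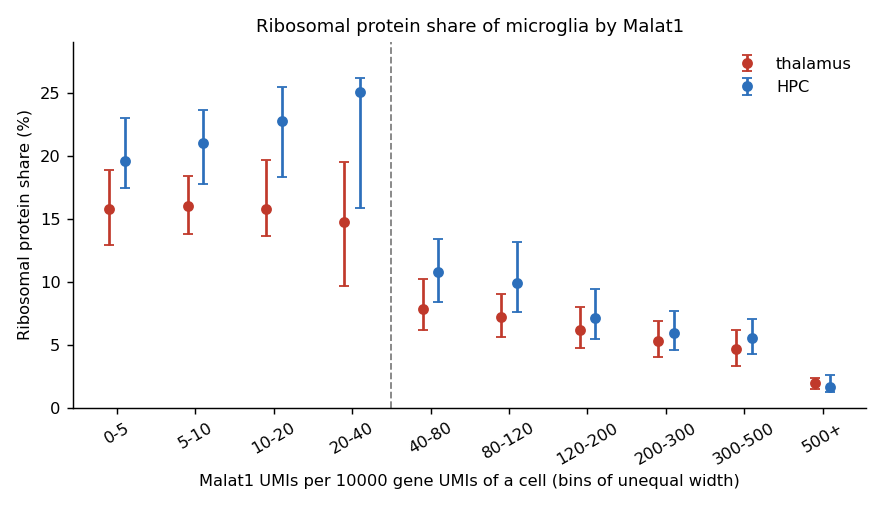
Median share of UMIs on ribosomal protein genes over single microglia (percent, y axis) in ranges of Malat1 UMIs per 10000 (x axis), with bars from the 25th to the 75th percentile over cells, thalamus and HPC apart and a dashed line at the limit of 40. In the thalamus the median is 14.8% at 20 to 40 Malat1 UMIs per 10000 and 7.85% at 40 to 80, and in the HPC 25.02% (8 cells) and 10.7% (31 cells).

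All 84 members tested were higher in Malat1-poor cells (edgeR, set as block), against 27.9% of all genes tested, and 0 were lower, against 34.9% (62.8% in either direction). The sums of 81 members did not overlap and were higher (9.26% of all genes), and those of 0 members were lower without overlap (56.8% of all genes). The median log2 fold change was 2.44 for the members and -0.31 for all genes. Scaling matters here: edgeR's TMM factors shift all genes up by about 1 log2 unit, and with library totals alone the medians were 1.40 and -1.35, with 82 members higher and 0 lower. Over all genes the same change took the calls from 3488 higher and 4358 lower to 1693 and 7789.

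Among the largest increases by the rule were those of Rps26, Rpl41, Rpsa and Rps12. Rps26, which lines the channel through which messenger RNA leaves the small subunit, had 1436, 1540, 1629 and 1546 CPM in Malat1-poor cells of the thalamus sets and 2322 in HPC set 1. The Malat1-rich cells of the same sets held 430, 405, 376, 395 and 544 CPM (edgeR log2 fold change 3.01 ± 0.10 SE, adjusted p = 2.55e-186, or 1.97 with library totals alone). The lowest Malat1-poor sum of Rps26 was thus well above the highest Malat1-rich one. edgeR estimates the spread of a gene with help from the other genes, so a p-value this small does not come from the sums of Rps26 alone.
Rpl41, the smallest ribosomal protein, had 2010 ± 328 and 584 ± 77.7 CPM (n = 5 and 5, log2 fold change 2.82), Rpsa 2925 ± 223 and 905 ± 54.1 CPM (2.73), and Rps12 3981 ± 693 and 1261 ± 224 CPM (2.70). With library totals alone these log2 fold changes were 1.78, 1.69 and 1.66. Rps16, Rps23 and Rpl19 had log2 fold changes of 2.47, 2.30 and 2.52. The members that overlapped between the kinds of cell were Rps27rt, Rpl39l and Rpl7l1. Rpl7l1, a relative of Rpl7, had 67.9 ± 12.4 CPM in Malat1-poor and 85.5 ± 5.90 in Malat1-rich cells and was higher in CPM in 1 of 5 sets. Its log2 fold change was 0.80 (edgeR adjusted p = 1.94e-07), which turned to -0.25 with library totals alone (edgeR adjusted p = 0.0955).

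Malat1-poor cells differed from the others in more than these genes. Malat1-poor cells had a median of 2295 UMIs and 836 genes in the thalamus, against 4831 UMIs and 2335 genes in Malat1-rich cells. For the HPC the medians were 2076 UMIs and 806 genes, against 4765 UMIs and 2325 genes. The 10 microglial markers summed to 121 to 173 UMIs per 10000 in the thalamus sets and 98.0 in HPC set 1. Each list of another class summed to at most 2.09 in the thalamus and 4.34 in HPC set 1 (monocytes and macrophages). The cells were gated on these same markers, so the sums are no independent support for their identity. The markers of disease-associated microglia (DAM) summed to 175 to 495 per 10000 in the thalamus, against 20.5 to 74.8 in Malat1-rich cells, and the homeostatic markers to 15.8 to 24.3 against 61.0 to 84.8. Among cells of 1500 to 3500 UMIs, 82 of 83 members were higher (28% of all genes, with 41.9% lower) with a median of 2.44, and among DAM-gated cells 84 of 84 (27.8% of all genes, with 39.2% lower) with a median of 2.00 (both restrictions were chosen after the data had been seen). All 4 nuclear RNAs tested (Malat1, Neat1, Kcnq1ot1 and Gm26917) fell, with a median log2 fold change of -3.20. The fall of Malat1 was fixed by the limit that defined these cells. Among microglia with 2% to 5% mitochondrial counts, which the filter removed, 64.8% of 1262 thalamic and 19.7% of 912 HPC cells were Malat1-poor. The numbers of Malat1-poor cells in both regions therefore depend on this limit. The part that depth, cell damage or loss of nuclei plays in the share was not tested.

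DAM are a state that microglia take near damage and in neurodegeneration. Malat1-rich cells were called DAM with at least 4 of 9 DAM markers detected, and homeostatic with at least 5 of 8 homeostatic and at most 1 DAM marker. The share was 6.51%, 7.598%, 7.06% and 7.10% in DAM of the thalamus sets and 9.06%, 8.87%, 8.15% and 9.08% in DAM of the HPC sets. Homeostatic microglia were at 5.73%, 5.14%, 5.13% and 5.56% in thalamus sets against 7.57%, 5.55%, 5.62% and 5.77% in HPC sets. In DAM every HPC set was thus above every thalamus set, while homeostatic shares overlapped between the regions. Within sets, DAM were above homeostatic microglia in 8 of 8, by 2.17 percentage points ± 0.900 (SD, n = 8), a ratio of 1.38. By the number of DAM markers detected in a cell, the share of thalamic cells was 5.21% at 0 and 7.04% at 7 or more, and that of HPC cells 5.87% and 9.59%. Median UMIs per cell moved along with it, at 4078 and 7778.5 for thalamic cells and 4461.5 and 8334 for HPC cells.

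**Figure D4:**
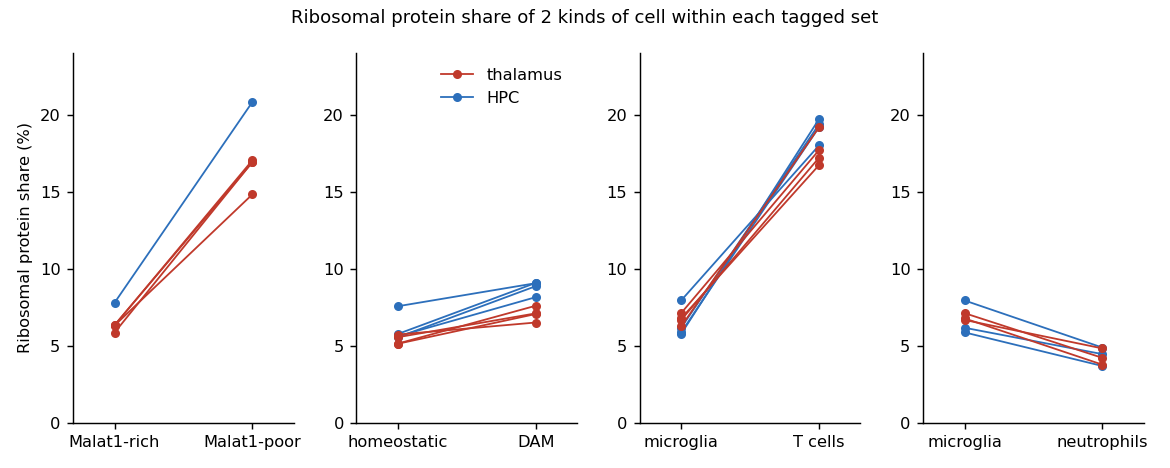
Share of UMIs on ribosomal protein genes (percent, y axis) in both kinds of cell of each comparison within sets, with a line joining the sums of the same tagged set, thalamus and HPC apart. The share is higher in Malat1-poor than in Malat1-rich microglia in 5 of 5 sets, in DAM than in homeostatic microglia in 8 of 8, in T cells than in microglia in 8 of 8, and in neutrophils than in microglia in 0 of 6.

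Of 84 members tested, 81 were higher in DAM (19.3% of all genes) and 1 was lower (21.6%, and 41% in either direction), with a median log2 fold change of 0.52, against -0.05 for all genes. DAM and homeostatic sums did not overlap for 14 members, all of them higher (4.17% of all genes, with 8.95% lower). With library totals alone, 80 were higher and 1 lower (median 0.44), while the calls over all genes went from 2369 higher and 2649 lower to 1884 and 3873. Among cells of 3000 to 6000 UMIs, a range chosen after the data had been seen, 78 of 83 were higher (13.4% of all genes) and 0 lower (11.2%), with a median of 0.38.

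Rps2, a protein at the entry of the messenger RNA channel, had 523, 577, 578 and 573 CPM in thalamic DAM and 695, 668, 638 and 634 CPM in HPC DAM. Homeostatic microglia held 373, 326, 332 and 329 CPM in thalamus sets against 426, 312, 304 and 312 CPM in HPC sets (edgeR log2 fold change 0.92 ± 0.06 SE, adjusted p = 1.42e-11). Every DAM sum of Rps2 was above every homeostatic sum.
Rpl41 followed with 828 ± 134 and 478 ± 82.8 CPM (n = 8 and 8, log2 fold change 0.87), Rpsa with 1119 ± 73.0 and 688 ± 105 CPM (0.79), Rpl10a with 952 ± 48.8 and 585 ± 76.1 CPM (0.78) and Rplp0 with 1130 ± 68.0 and 724 ± 72.3 CPM (0.73). Rps16, Rps23 and Rpl19 were called as well, with log2 fold changes of 0.65, 0.45 and 0.67. The member that was lower was Rpl7l1, with 74.9 ± 11.9 and 91.5 ± 7.503 CPM (edgeR log2 fold change -0.21 ± 0.07 SE, adjusted p = 0.0109), and its call was lost in 4 of 8 fits without 1 set. The part of the depth of DAM-gated cells in these differences was not tested beyond the restriction above.

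The difference between DAM and homeostatic microglia was itself compared between regions. In the thalamus sets alone 81 members were higher (20.9% of all genes), and in the HPC sets alone 80 (9.62% of all genes). The interaction of state and region was called for 0 of 84 members by edgeR, against 0.261% of all genes, so few genes of any kind were called. Of the members, 0 had an unadjusted p under 0.05, with a median of -0.10 (thalamus minus HPC). For T cells against microglia the interaction was called for 0 of 84 members, against 1.06% of all genes. Here 11 members had an unadjusted p under 0.05, and the median was -0.22. These tests were added after the shares by region had been seen.

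T cells, which need ribosomes to grow and divide once they are activated, held a share 11.8 percentage points ± 1.68 (SD, n = 8) above that of the microglia of the same sets, a ratio of 2.80. Of 84 members tested, 82 were higher (33.9% of all genes) and 1 lower (42.1%, and 76% in either direction), with a median log2 fold change of 1.33, against -0.13 for all genes. For 81 members, all of them higher, the sums did not overlap (19.7% of all genes, with 24.2% lower). With library totals alone the median was 1.46 for the members and 0.01 for all genes. The microglial markers summed to 5.44 to 8.33 UMIs per 10000 in T cells of both regions.

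Rpsa changed most, with 3973, 3876, 4374 and 3648 CPM in T cells of the thalamus sets and 3725, 3667, 3910 and 3782 CPM in those of the HPC sets, against 622 to 1131 CPM in the microglia of the same sets (edgeR log2 fold change 2.07 ± 0.11 SE, adjusted p = 7.42e-12). Rps15a had 3034 ± 388 and 693 ± 85.6 CPM (n = 8 and 8, log2 fold change 1.99), Rpl12, a protein at the base of the stalk, 3421 ± 211 and 898 ± 116 CPM (1.80), Rps27 2255 ± 283 and 599 ± 80.9 CPM (1.77) and Rpl27 1499 ± 182 and 407 ± 46.2 CPM (1.74). The rise differed among members by more than in the microglial comparisons.
Among members of at least 100 CPM the middle 50% of log2 fold changes lay between 1.14 and 1.56, against 2.35 to 2.52 for Malat1-poor cells and 0.48 to 0.63 for DAM. Rpl10 was at 0.67, Rplp1 at 0.88, Rps16 at 1.71, Rps23 at 1.28 and Rpl19 at 1.65. Rpl7l1 was the member that was lower, with a log2 fold change of -0.35 ± 0.07 SE by edgeR (adjusted p = 0.000284).

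Neutrophils, short-lived cells that leave the marrow with little further growth, held less. Their share was 2.45 percentage points ± 0.610 (SD, n = 6) below that of the microglia of the same sets, and lower in 6 of 6. Of 85 members tested, 64 were lower (41.9% of all genes) and 4 higher (20.9%, and 62.8% in either direction), with a median log2 fold change of -0.77, which lay close to the -0.59 of all genes. Sums did not overlap for 51 members that were lower (34.2% of all genes) and 1 that was higher (10.7%). Neutrophils were few and shallow, with a median of 1846 UMIs in the thalamus and 1976 in the HPC, and markers of monocytes and macrophages summed to 1.53 to 25.5 UMIs per 10000 in them.

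Rpl3, a protein beside the peptidyl transferase centre of the large subunit, had 136, 183 and 86.6 CPM in neutrophils of thalamus sets 1, 2 and 4 and 151, 104 and 110 CPM in those of HPC sets 1, 2 and 4. The microglia of these sets held 606 to 838 CPM (edgeR log2 fold change -2.50 ± 0.18 SE, adjusted p = 3.66e-24). The ranges were far apart. Rpl10a (165 ± 31.1 and 747 ± 136 CPM, n = 6 and 6), Rps4x (343 ± 65.0 and 1267 ± 161 CPM), Rpl12 (276 ± 95.2 and 923 ± 121 CPM) and Rpl22l1 (38.3 ± 18.1 and 129 ± 18.4 CPM) followed with log2 fold changes of -2.19, -1.92, -1.79 and -1.63.
The member that was higher with no overlap was Rps9, with 2470 ± 367 CPM in neutrophils and 1640 ± 163 in microglia (edgeR log2 fold change 0.59 ± 0.14 SE, adjusted p = 0.000178). Rps27 (0.62), Rps27l (0.74) and Rpl3l were higher with overlapping sums. Rpl3l, the muscle form of Rpl3, had 29 UMIs in neutrophils and 11 in microglia, and 3 of 6 neutrophil sums were at 0, so its fitted fold change is left out. Rps16 had a log2 fold change of 0.04 (edgeR adjusted p = 0.805), Rps23 one of -1.05 and Rpl19 one of -0.79.

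**Figure D5:**
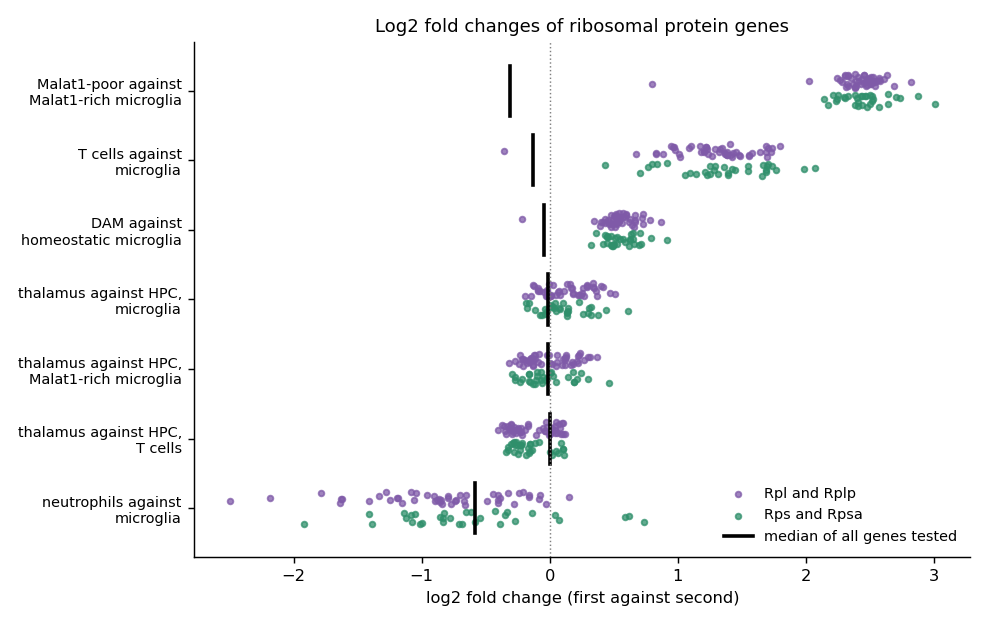
Log2 fold change of each ribosomal protein gene (x axis) in the 7 comparisons (rows), large and small subunit in different colours and a black line at the median of all genes tested, with Rps19bp1 and members under 20 CPM on both sides left out. The points of the Malat1-poor comparison lie near 2.4, those of DAM near 0.5, those of T cells against microglia near 1.3, those of neutrophils mostly below 0, and those of the comparisons between regions around 0.

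Several symbols are paralogs of others, and a member is uncertain where its reads cannot be split from those of another gene. Of the 86 members, 55 shared at least 1 stretch of 90 bases in the last 400 bases of a transcript with another gene, 29 shared over 50% of such stretches, and Rpl10 and Rpl36a all of them. Only Rps27 and Rps27rt shared stretches with each other, and for the remaining members the genes that shared them lay outside the family. The other paralogs below shared no such stretch with the member each resembles. Members with over 50% shared and members with none had close medians, for example 2.48 and 2.46 in Malat1-poor microglia and 0.54 and 0.51 in DAM. Rpl10l, a form of Rpl10 known from testis, had 0 UMIs in all of these sums, and Rpl3l had 11 in microglia. Rps27rt, which shares 89.8% of its stretches, among others with Rps27, was at 7.16 ± 1.35 CPM in microglia and 27.1 ± 9.59 in T cells (log2 fold change 1.55, edgeR adjusted p = 1.66e-07), beside 1.77 for Rps27. Rpl22l1 and Rpl22, which can take each other's place in the ribosome, had 124 ± 18.7 and 399 ± 47.0 CPM in microglia and rose alike in T cells, by 1.32 and 1.37.
Rpl39l was at 3.03 ± 1.75 CPM in microglia and 2.24 ± 2.13 in T cells, with an edgeR adjusted p of 0.444, while Rpl39 rose by 1.39. Rpl36al and Rpl36a had log2 fold changes of 0.35 and 0.66 in DAM and 1.22 and 1.23 in T cells. Rps27l was higher in DAM by 0.63 and in T cells by 0.80. Rps19bp1 rose by 1.58 in Malat1-poor cells, 0.31 in DAM (edgeR adjusted p = 0.0406) and 0.53 in T cells.

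Other genes of the translation machinery were followed as lists, beside the shares of all genes called higher and lower. These were 27.9% and 34.9% in Malat1-poor microglia, 19.3% and 21.6% in DAM, 33.9% and 42.1% in T cells, and 20.9% and 41.9% in neutrophils. Between regions they were 9.06% and 5.13% in microglia, 6.55% and 3.51% in Malat1-rich microglia, and 0.12% and 0.0218% in T cells. The 18 other genes with a TOP start, mostly translation factors, were all higher in Malat1-poor microglia (median log2 fold change 2.27), in DAM (0.48) and in T cells (1.23), and 13 were lower and 2 higher in neutrophils (median -0.82). Between regions 11 of the 18 were higher in thalamic microglia (median 0.30), among them Npm1, a nucleolar chaperone, with a log2 fold change of 0.43 (edgeR adjusted p = 0.0149) and Rack1, a protein of the small subunit despite its symbol, with 0.42 (edgeR adjusted p = 0.0426). These examples and Eif4ebp1 below were chosen after their values were seen. With Malat1-rich cells alone 4 were higher (median 0.19), and in T cells 0 were called (median 0.05).
Of 78 genes of the mitochondrial ribosome, which translates the messages of mitochondria, 71 were higher and 0 lower in Malat1-poor cells (median 1.66), 21 and 0 in DAM (0.14), and 55 and 5 in T cells (0.63). In neutrophils 14 were higher and 34 lower (-0.56), near the shares of all genes and their median of -0.59. Between regions 16 and 0 were called in thalamic microglia (0.16), 7 and 2 in Malat1-rich ones (0.11) and 0 of 77 in T cells (0.05). Of 24 genes of ribosome biogenesis 15 were higher and 2 lower in Malat1-poor cells (0.86), 7 and 0 in DAM (0.15), 15 and 5 in T cells (0.50), 1 and 16 in neutrophils (-1.39), 2 and 0 in thalamic microglia, and 0 in the other regional comparisons.
Among 11 genes that control TOP messages, Eif4ebp1, an inhibitor of cap-dependent translation under mTOR, was higher in thalamic microglia with a log2 fold change of 0.66 (53.7 ± 2.89 and 35.3 ± 3.76 CPM, n = 4 and 4, edgeR adjusted p = 0.00262). In all, 2 of the 11 were higher and 1 lower there, 2 and 0 in Malat1-rich microglia, 0 and 0 in T cells of the regions, 2 and 6 in Malat1-poor cells, 2 and 2 in DAM, 2 and 6 in T cells and 2 and 5 in neutrophils. Of the nuclear RNAs, 1 was higher and 0 lower between regions in microglia with or without Malat1-poor cells, 0 were called between T cells of the regions, 3 were higher and 1 lower in DAM, 1 and 1 in T cells and 2 and 2 in neutrophils.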

How the data were processed

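The deposited values were raw UMI counts per gene and cell, which the authors made with Cell Ranger on mm10 (per the labels and methods) and deposited as 1 matrix for each tagged set. Whether intronic reads were counted was not given in the sources used here. Cells with 200 to 7500 genes and at most 2% mitochondrial counts were kept (24939 of 29190, with 4250 removed for mitochondrial counts). Sets held 9789875 to 26636526 UMIs on genes. Tags remove doublets between sets only, and no doublet caller was run.

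Cells were gated by 10 markers a class (at least 3 detected and 2 more than any other class). Monocytes and macrophages needed at least 3 of their markers, 2 more than any class but microglia, and at most 5 microglial markers. Their markers thus did not have to outnumber the microglial ones. Other cells that would have been microglia but held at least 3 of these markers were left ungated. Sums over at least 20 cells of a set and class were tested with edgeR's quasi-likelihood test (edgeR 4.0.16, limma 3.58.1, R 4.3.3) on TMM-scaled counts, and p-values adjusted by Benjamini-Hochberg across every tested gene (threshold 0.05). Comparisons within sets had the set as a block. DESeq2 1.42.0, other filters and gates, and leaving out each set were alternatives. Shares and CPM used raw totals (Python 3.11.15, numpy 2.4.6, pandas 2.3.3, scipy 1.17.1, and matplotlib 3.10.9 for the plots). The named members were up to 5 in each direction with the largest fold change among called members without overlap and of at least 20 CPM, and, whatever their value, Rpsa, the stalk, the paralogs, Rps19bp1 and the members that the study names. Rps27 and Rps27l in neutrophils and the genes of other lists were named after their values were seen. The members and lists were chosen with earlier results of these data known. The tests were tried on simulated counts. One gene with an Rps symbol was not analysed here. A result that the naming rule selects is not reported here.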

Additional observations from a re-analysis of the deposited data

Results flagged for a closer look

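In groups of 4 sets, a set was singled out where its gap to the nearest other set took more than the share of the whole range that Dixon's 95% limit allows. Chance flags about 1 in 20 groups. Of 21 groups of shares 4 were singled out, and of 60 groups of named members 13. Thalamus set 3 had the lowest share over all cells of its region (7.24%, next 8.80%) and over Malat1-rich microglia (5.85%, next 6.31%). Thalamus set 1 had the lowest share in Malat1-poor microglia (14.8%, next 16.9%). HPC set 1 had the highest share in homeostatic microglia (7.57%, next 5.77%).

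Most member flags fell on HPC set 1. It was the highest HPC set in microglia for Rpl5 (654 CPM, next 566), Rpl8 (792 CPM, next 640), Rplp0 (867 CPM, next 713) and Rpsa (878 CPM, next 647), and in Malat1-rich microglia for Rplp0 (846 CPM, next 708). In homeostatic microglia it was the highest for Rpl10a (724 CPM, next 539), Rps2 (426 CPM, next 312) and Rpsa (782 CPM, next 595). In the microglia set against T cells it was the highest for Rpl12 (1055 CPM, next 797), Rpl27 (514 CPM, next 397) and Rps15a (898 CPM, next 669). Thalamus set 1 had the lowest Rps2 in DAM (523 CPM, next 573) and the highest in homeostatic microglia (373 CPM, next 332). These flags share cells and libraries, so they are not independent.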

How the results depend on the processing

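The 4 comparisons within sets kept their counts of called members within 1.5 times under every alternative run, at 82 to 84 for Malat1-poor microglia, 78 to 83 for DAM, 82 to 83 for T cells and 59 to 76 for neutrophils. The single value that turned was that of Rpl7l1 in Malat1-poor microglia (0.80, and -0.25 with library totals without TMM factors). The regional counts did not keep. In microglia, the 4 called members became 18 with DESeq2 (16.1% of all genes called), 20 with a mitochondrial limit of 5% (19.9%) and 0 to 40 without 1 set (6% to 24.6%), against 14.2% of all genes. In Malat1-rich microglia, the 2 became 5 with DESeq2 (11.9% of all genes called) and 0 without the cells of the top 5% of UMIs (7.73%). A Malat1 limit of 80 gave 1 (8.92%), and leaving out 1 set 0 to 29 (3.94% to 19.7%), against 10.1% in the main fit. In T cells, the 1 became 13 with DESeq2 (0.262% of all genes called), 5 with no filter on low counts (0.587%) and 0 without the top 5% (0.155%). It became 0 to 1 without 1 set (0.0101% to 0.218%), where the 1 was Rpl41, against 0.142% in the main fit. The cause was not tested.

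Sets of the 2 regions share numbers in file names only. With the number as a replicate block, 32 members were called in microglia (29.3% of all genes), 14 in Malat1-rich microglia (23.1%) and 18 in T cells (1.45%). Sets of the same number correlated at 0.0804 to 0.483 and others at -0.471 to 0.149, and 7 of 8 sets correlated best with their own number, a hint of pairing from the data. As no label ties a number to a mouse and 1 same-number correlation was under 0.1, the numbers were not taken as pairs.

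The share difference of Malat1-poor microglia, 10.8 percentage points, was 12.4 with the mitochondrial limit of 5% and 9.05 with a Malat1 limit of 80. The regional share difference in Malat1-rich microglia ranged from -0.381 to 0.297 without 1 set. Counts limit rare members most, such as Rpl39l and Rpl3l, and with 4 sets a region small differences may go undetected.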
